A study of Mus musculus with 4 samples.

Results

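The 43 genes described here are transcripts of DNA synthesis and cell division, and they were listed by gene symbol for their known roles, by a rule that uses no measured value. All 43 symbols were found among the 54532 genes of the count table, and all 43 had enough counts to be tested. Of them, 13 act in S phase and 30 in mitosis. In libraries of alveolar macrophages (AMs), which live in the airspaces of the lung, transcripts of cyclin A2, cyclin B2 and the anaphase activator CDC20 were higher when a 4T1 mammary tumor was present. Mki67, Pcna and Tk1, which are widely used as proliferation markers, were lower relative to most genes, although scaling on AM identity genes turned the change of Mki67 and Pcna to a rise. On the main scaling, which assumes that most genes do not change, the summed level of the 43 genes differed by 1.06% between the groups. Genes of neutrophils, eosinophils and granulocyte progenitors were also higher in these tumor libraries, and AM identity genes were lower.

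A cell that divides copies its DNA in S phase and separates the copies in mitosis. E2F transcription factors switch on the genes of DNA synthesis at the start of S phase, and the genes of mitosis follow later, through promoter elements read by the DREAM and MuvB complexes and by NF-Y. Resident AMs maintain their number largely by dividing in place, at a low rate, so that transcripts of division are usually scarce in a bulk sample of these cells.

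Libraries of total RNA were made from AMs of female wild-type mice, which in this study were of BALB/c background and 8 to 10 weeks old. The control group was represented by 2 libraries of tumor-free mice, and the tumor group by 2 libraries of mice that had received 4T1 cells, a mouse mammary carcinoma line, in the mammary fat pad 2 weeks earlier. Both groups were labelled WT, with no transgene or deletion. The study describes AMs isolated from control and 4T1 mice for imaging and for RNA-seq and gives the imaged cells as CD45+ CD11b- CD11c+ SiglecF+, a gate that would leave out CD11b+ granulocytes. It states no separate gate for the RNA libraries. The number of mice in each and any pooling of mice are not given in the sources used here, so p-values measure only the spread between these libraries, which may be technical.

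The libraries held 16167147 to 19205737 counts. The 14 genes of an AM identity list summed to 16385 and 16555 CPM (counts normalized to library size) in the control and to 12068 and 12237 CPM in the tumor libraries, so the labelled cell type was present in each. All 14 were lower in the tumor libraries, with a median log2 fold change of -0.47. Genes of other cells were also present. The sum of 10 neutrophil genes was 44.3 and 44.5 CPM in controls against 3867 and 3833 CPM in tumor libraries, that of 5 eosinophil genes 0.693 and 0.823 against 2879 and 2855 CPM, and that of 8 granulocyte progenitor genes, which mark dividing precursors, 1.28 and 0.886 against 231.8 and 231.6 CPM. In a bulk library, a change in the number of cells of a type and a change in RNA per cell cannot be told apart.

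The first question was whether S phase and mitosis transcripts differed between AMs of tumor-bearing and control mice. With edgeR's quasi-likelihood test and Benjamini-Hochberg adjustment over all genes tested, 18 of the 43 genes (41.9%) had an adjusted p under 0.05. Over all 14256 genes tested, 53.8% passed this threshold. In the tumor libraries 13 of the 43 were higher (30.2%, against 29.0% of all genes) and 5 were lower (11.6%, against 24.8%). A change that passed the test and reached 1.5-fold was found for 5 genes, all higher (11.6%, against 17.4% of all genes higher and 7.92% lower), namely Cenpa, Cdc20, Cdca8, Ccnb2 and Rrm2. The 43 genes had a median log2 fold change of 0.08, beside 0.02 for all genes, and single values ran from -0.49 to 1.11. The levels of the groups did not overlap for 31 of the genes, with 22 above and 9 below the controls (72.1%, against 75.1% of all genes).

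**Figure D1:**
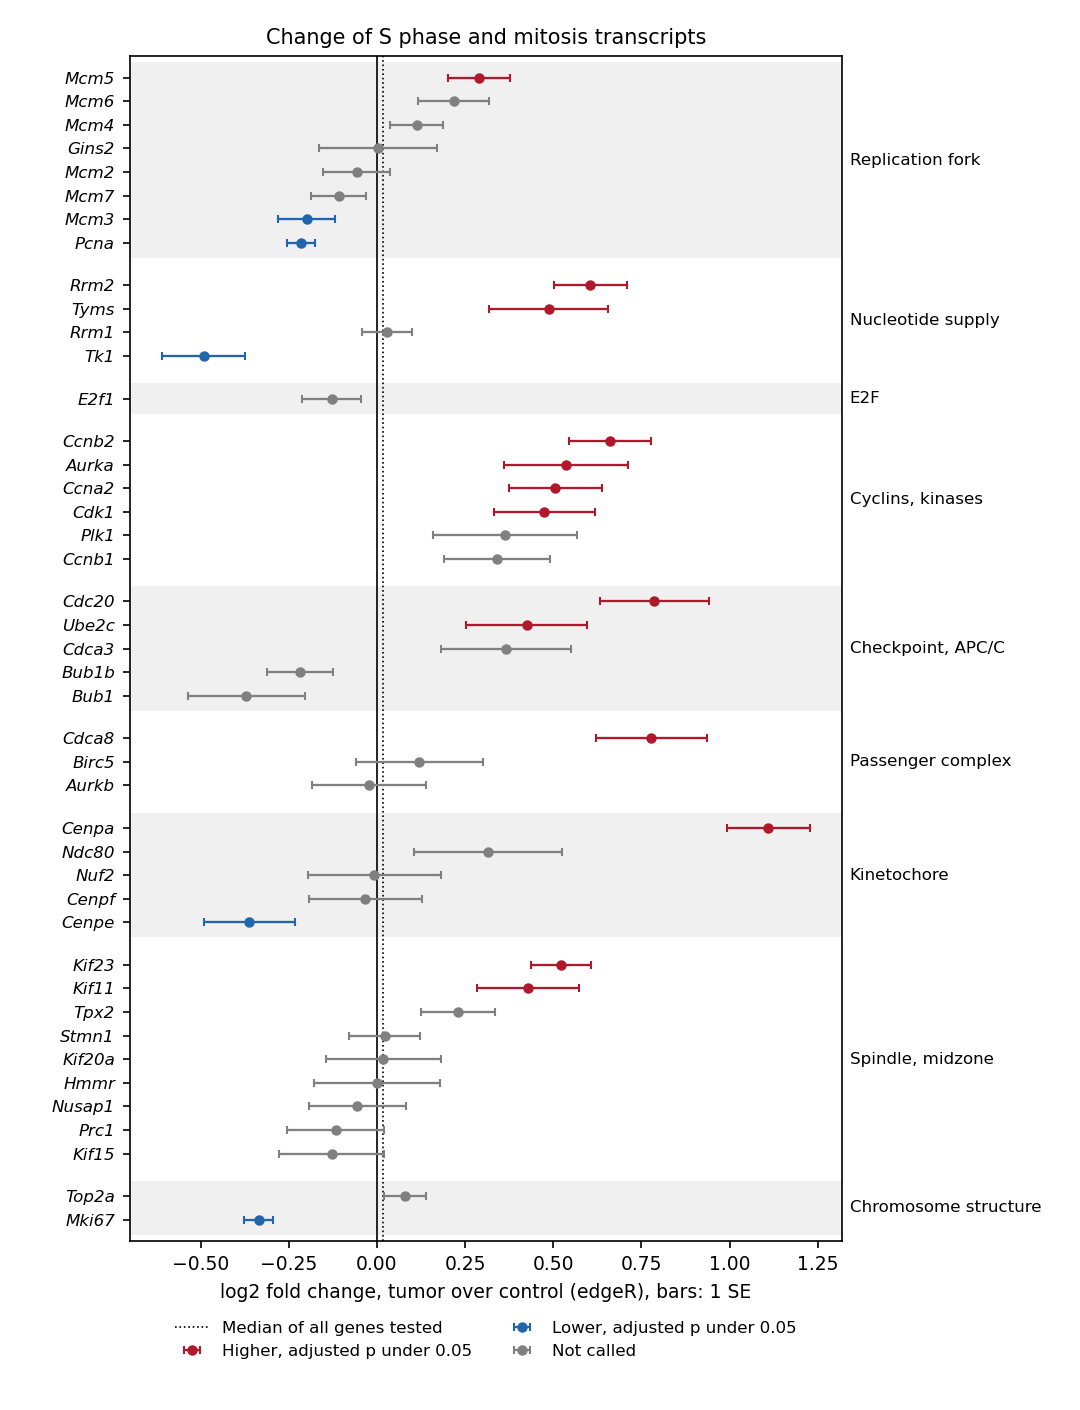
The log2 fold change of each S phase and mitosis gene, tumor over control, is plotted on the horizontal axis, with bars of 1 SE, genes grouped by role and ordered by their change. Red points are the 13 genes called higher and blue points the 5 called lower by edgeR under TMM scaling (0 under AM identity scaling); all 6 cyclin and kinase genes lie to the right of 0, and the largest value is that of Cenpa at 1.11.

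The direction of small changes depended on the scaling. TMM scaling, used throughout, assumes that most genes do not change. Scaling on the AM identity list instead raised the all-gene median from 0.02 to 0.46 on the log2 scale, a shift of 0.44, and under it 39 of the 43 genes were called higher and 0 lower, beside 65.8% and 6.10% of all genes. The median of the set minus that of all genes was 0.06 under either scaling, as it must be, since a change of scaling shifts all genes nearly alike. With total counts as library sizes, 18 genes were called higher and 3 lower. Every rise and fall given here is therefore relative to TMM scaling, and of the 5 lower genes Pcna, Mki67 and Mcm3 were called higher under AM identity scaling, while Tk1 and Cenpe were not called.

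These are low-level transcripts in AMs. The 43 genes together held 0.0900% and 0.0895% of the counts in controls and 0.0955% and 0.0945% with tumor. Their TMM-scaled levels summed to 921 and 916 CPM in controls and to 933 and 923 CPM with tumor. The tumor sums lay above the control sums by 1.06%, and no test of these sums is given, since an exact two-sided permutation of 2 against 2 libraries cannot go below p = 0.333. Mki67 and Pcna alone made up 31.3% and 31.9% of the sum in controls and 26.2% and 25.7% with tumor. Without this pair the sum of the other 41 genes was 632 and 624 CPM in controls and 689 and 685 CPM with tumor, higher by 9.42%. Both genes of the pair were called lower in these same data. A sum that leaves out either of them therefore moves upward by the choice itself. The sum of this pair was thus lower and that of the other genes higher in both tumor libraries, and these moves nearly cancelled in the total. This near balance belongs to the TMM scale. The share of all counts held by the 43 genes was higher in both tumor libraries. Under AM identity scaling Mki67 and Pcna were both called higher.

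The sums were then taken for S phase and mitosis apart. The 13 S phase genes summed to 461.1 and 461.1 CPM in controls and to 454 and 436 CPM with tumor. Without Pcna the other 12 summed to 307 and 304 CPM against 317 and 306 CPM, so that the groups overlapped. The 30 mitosis genes summed to 459.9 and 455.0 CPM in controls and to 479 and 487 CPM with tumor, and without Mki67 to 325 and 320.2 CPM against 372 and 379.8 CPM. Among the S phase genes 3 were called higher (23.1%) and 3 lower (23.1%), with a median log2 fold change of 0.004. Among the mitosis genes 10 were higher (33.3%) and 2 lower (6.67%), with a median of 0.18. The shares of higher genes lay near the 29.0% of all genes, of which 24.8% were lower. The difference between S phase and mitosis genes was not tested.

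**Figure D2:**
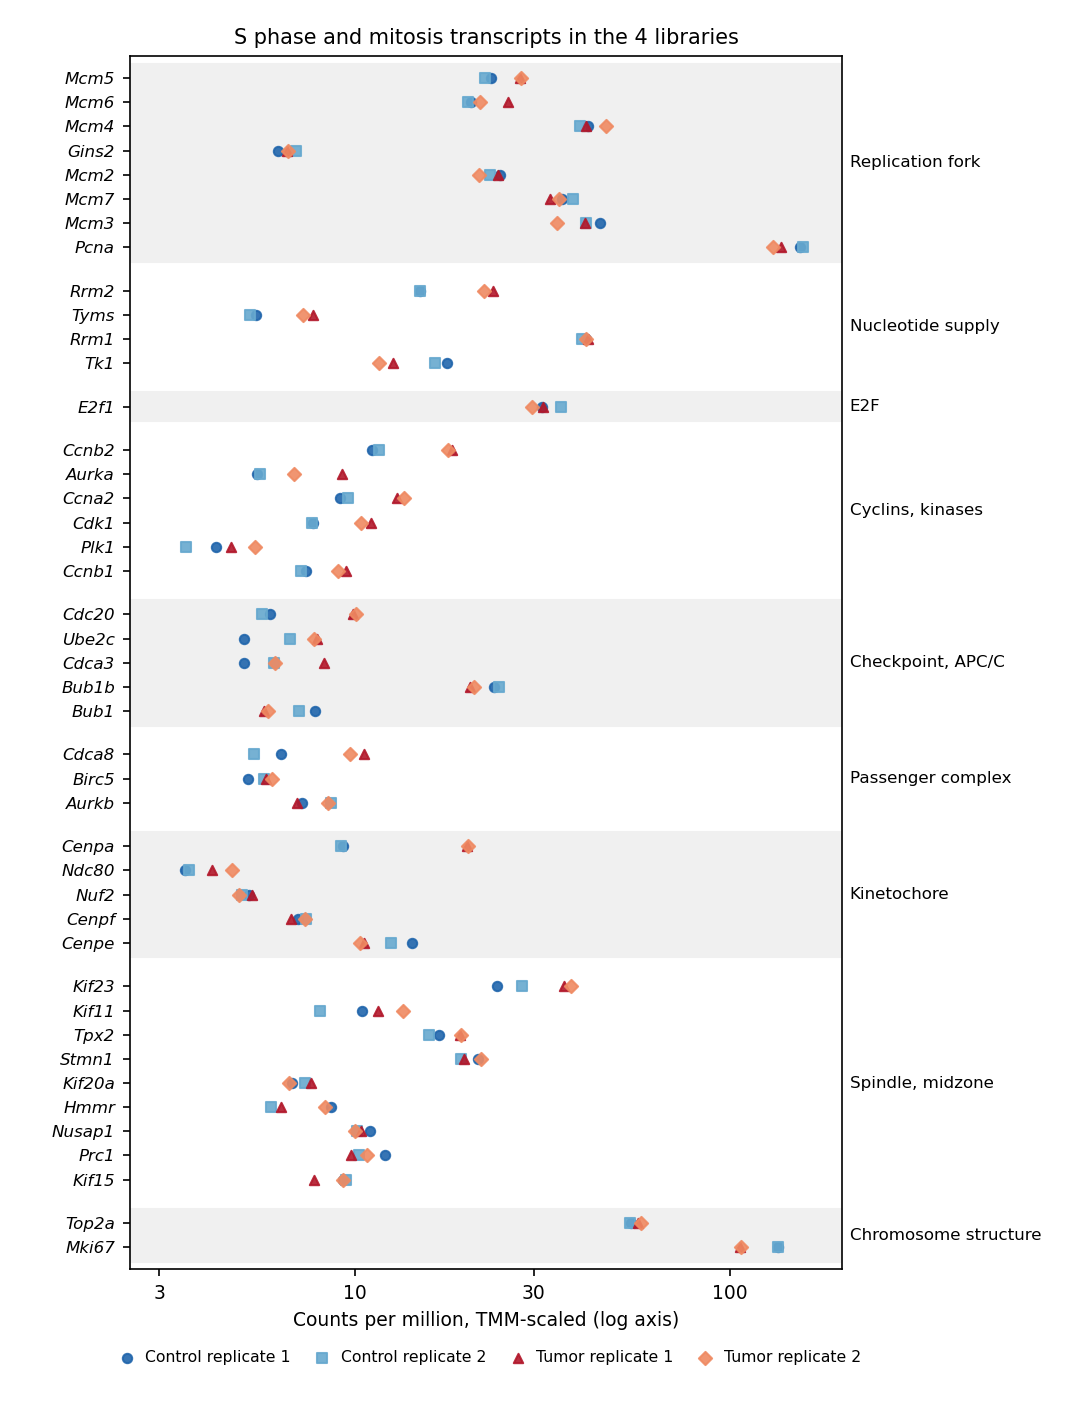
The TMM-scaled CPM of each of the 43 genes is plotted on a log axis for the 4 libraries, with control libraries in blue and tumor libraries in red and orange. Pcna and Mki67 stand at the right with over 100 CPM in every library, most mitosis genes lie between 3 and 30 CPM, and the tumor libraries lie clearly to the right for Cenpa, Ccnb2, Cdc20 and Cdca8.

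The genes of the set share promoter elements that the choice by symbol did not use. In RefSeq promoter windows of build GRCm38.p6, from 250 bases before to 50 bases after the start site, 36 of the 43 genes had an entry. No entry was used for Mcm4, Gins2, Ccna2, Aurkb, Kif20a, Tpx2 and Stmn1. Windows were searched on both strands for 3 elements. The E2F site was taken as TTTCCCG in its first spelling, with TTTCGCG as the second spelling searched, TTTGCCG as the third spelling and TTTGGCG as the last spelling. The cell cycle homology region (CHR) that MuvB complexes bind was taken as TTTGAA in its usual spelling and TTCGAA as the other spelling. The element that NF-Y binds was the CCAAT box. None of these motifs is contained in another.

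An E2F site was found for 9 of the 36 genes (25%), against 7.65% of 27025 genes with a window. A CHR was found for 22 (61.1%), against 21.7% of all genes, and a CCAAT box for 28 (77.8%), against 41.1%. The CHR was unevenly spread within the set, in 20 of 25 mitosis genes and 2 of 11 S phase genes. Of the 20 mitosis genes with a CHR, 9 were called higher, 1 lower and 10 not called, and of the 5 without it 0 were higher, 1 was lower and 4 were not called. The CCAAT box gave a like split, with 9 higher, 2 lower and 9 not called among 20 mitosis genes that held it, and 5 not called among 5 that did not. The groups without an element are small, and of all genes 29.0% were called higher and 24.8% lower. For either element, median log2 fold changes of mitosis genes were 0.36 with it and -0.01 without. Those of S phase genes were -0.08 with a CHR (2 genes) and 0.03 without, and -0.01 with a CCAAT box and -0.13 without. With an E2F site the median was 0.12 against 0.33 without it in mitosis genes, and 0.05 against -0.06 in S phase genes. A match of letters is a description and does not show that a factor binds there.

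The 180 bases before the start site are shown for 3 mitosis genes that rose, for Mki67, which holds the same elements and fell, and for 2 enzymes of nucleotide supply, 1 called higher and 1 lower. They are written 5′ to 3′ along the gene, with CHR, CCAAT and E2F letters in capitals as they read on that strand (ATTGG is a CCAAT box on the other strand), and positions count back from the base before the start site, which is -1. In Ccnb2 the CHR starts at -167 and CCAAT boxes at -87, -54 and -21. In Cdc20 the CHR starts at -18 and CCAAT boxes at -53 and -8. Mki67 holds CHRs at -116 and -98 and CCAAT boxes at -166 and -141. The CHR of Cenpa lies outside the stretch shown, which holds CCAAT boxes at -109 and -86. Rrm2 has a CCAAT box at -50, and Tk1 none of these letters.
Cenpa, plus strand of chr5:30666706-30666885: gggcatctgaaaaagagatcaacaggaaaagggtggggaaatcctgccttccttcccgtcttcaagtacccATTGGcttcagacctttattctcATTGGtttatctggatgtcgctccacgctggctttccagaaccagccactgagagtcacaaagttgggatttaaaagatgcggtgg
Ccnb2, minus strand of chr9:70421555-70421734: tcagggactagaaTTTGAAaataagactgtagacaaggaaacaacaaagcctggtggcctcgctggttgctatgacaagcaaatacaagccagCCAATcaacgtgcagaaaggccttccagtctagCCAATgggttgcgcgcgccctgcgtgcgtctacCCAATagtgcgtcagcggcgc
Cdc20, minus strand of chr4:118437344-118437523: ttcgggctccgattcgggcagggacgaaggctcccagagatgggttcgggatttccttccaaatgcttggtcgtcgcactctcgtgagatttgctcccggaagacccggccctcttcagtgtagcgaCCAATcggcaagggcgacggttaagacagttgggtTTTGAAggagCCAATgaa
Mki67, minus strand of chr7:135716380-135716559: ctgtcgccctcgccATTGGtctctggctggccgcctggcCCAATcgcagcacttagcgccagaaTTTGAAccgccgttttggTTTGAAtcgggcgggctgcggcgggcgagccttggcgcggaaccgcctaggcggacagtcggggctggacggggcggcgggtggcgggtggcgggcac
Rrm2, plus strand of chr12:24708074-24708253: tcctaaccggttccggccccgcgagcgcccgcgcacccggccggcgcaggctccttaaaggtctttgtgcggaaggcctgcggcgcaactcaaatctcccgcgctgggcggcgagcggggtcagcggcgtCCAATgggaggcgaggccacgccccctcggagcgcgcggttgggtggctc
Tk1, minus strand of chr11:117826015-117826194: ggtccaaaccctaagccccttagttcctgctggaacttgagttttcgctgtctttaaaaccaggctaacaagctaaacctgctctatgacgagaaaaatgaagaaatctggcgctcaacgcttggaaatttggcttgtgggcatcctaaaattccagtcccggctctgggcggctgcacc

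At the replication fork, 1 of 8 genes was called higher and 2 lower, near or below the 29.0% and 24.8% of all genes, and the changes were small. Pcna encodes the sliding clamp that holds DNA polymerase on its template and is also used in DNA repair. It was the most abundant gene of the set for its length, at 64.8 CPM per kilobase in controls, where the median of the 43 genes was 2.29. It stood at 154 and 157 CPM in controls and at 137 and 131 CPM with tumor. Both tumor libraries lay below both controls, and the log2 fold change was -0.22 ± 0.0392 (SE, edgeR adjusted p = 3.43e-05), against 0.22 under AM identity scaling.

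Mcm2 to Mcm7 encode the 6 subunits of the ring-shaped helicase that unwinds DNA, and under TMM scaling 1 of them was called higher and 1 lower, whereas under AM identity scaling all were called higher. Mcm5 was at 23.0 and 22.3 CPM in controls and at 27.6 and 27.8 CPM with tumor, a log2 fold change of 0.29 ± 0.0883 (SE, edgeR adjusted p = 0.00712). Its call was lost without control replicate 2 (0.26, adjusted p of 0.0575) and with the DESeq2 Wald test (0.28, adjusted p of 0.0686). Mcm3 was at 45.0 and 41.4 CPM in controls and at 41.1 and 34.5 CPM with tumor, a log2 fold change of -0.20 ± 0.0811 (SE, edgeR adjusted p = 0.0399), against 0.24 under AM identity scaling. The groups of Mcm3 were separated by a narrow gap, and its call was lost under 5 of 11 alternatives, among them those without control replicate 1 or tumor replicate 2, where it was -0.14 and -0.08. Mcm6 (0.22), Mcm4 (0.11), Mcm2 (-0.06) and Mcm7 (-0.11) did not pass the test. Over the alternatives other than AM identity scaling, Mcm6 ran from 0.09 to 0.34 and Mcm4 from 0.02 to 0.20. With total counts as library sizes Mcm6 and Mcm4 were called higher. Gins2, a subunit of the GINS complex that joins this helicase at the fork, was at 0.00 ± 0.167 (SE), but 67.3% of its exon bases are shared with Gse1 on the opposite strand, so its counts are uncertain.

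Of the 4 genes of nucleotide supply, 2 were called higher and 1 lower, beside 29.0% and 24.8% of all genes. Rrm2 encodes the regulatory subunit of ribonucleotide reductase, whose level limits the making of deoxyribonucleotides. It was at 14.9 CPM in each control library and at 23.4 and 22.04 CPM with tumor. This was 1.52-fold higher, with a log2 fold change of 0.61 ± 0.103 (SE, edgeR adjusted p = 1.35e-05). The large subunit of the same enzyme, encoded by Rrm1, was at 41.2 and 40.3 CPM in controls and 42.0 and 41.3 CPM with tumor. Its log2 fold change of 0.03 had a 95% interval from -0.12 to 0.17.

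Tyms, the thymidylate synthase that makes thymidylate anew, rose from 5.43 and 5.25 CPM to 7.73 and 7.28 CPM, a log2 fold change of 0.49 ± 0.169 (SE, edgeR adjusted p = 0.0170). Its call was lost without either control replicate and without tumor replicate 1, with values of 0.44 to 0.51 in those fits. Tk1, the thymidine kinase that salvages thymidine in dividing cells, fell from 17.6 and 16.3 CPM to 12.6 and 11.6 CPM. Its log2 fold change of -0.49 ± 0.118 (SE) was the most negative of the set, with an edgeR adjusted p of 0.000835, and it was called lower under each of the 11 alternatives other than AM identity scaling, where it was -0.05 and not called. E2f1, the transcription factor that drives S phase genes, was at 31.6 and 35.6 CPM in controls and at 31.7 and 29.7 CPM with tumor, so that the groups overlapped. Its log2 fold change was -0.13 with an adjusted p of 0.201.

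The 6 genes grouped here as cyclins and kinases of mitotic entry pointed the same way. The kinases Aurkb, Bub1 and Bub1b, grouped by other roles, had negative values. In each of the 6 genes both tumor libraries lay above both controls, as they did in 39.3% of all genes. Of the 6, 4 passed the test, against 29.0% of all genes called higher. Ccnb2 encodes cyclin B2, a partner of CDK1. It was at 11.1 and 11.6 CPM in controls and at 18.1 and 17.7 CPM with tumor, 1.58-fold higher, with a log2 fold change of 0.66 ± 0.116 (SE, edgeR adjusted p = 2.10e-05). Cdk1 itself, the kinase that drives cells into mitosis, was at 7.73 and 7.66 CPM in controls and at 11.0 and 10.4 CPM with tumor, a log2 fold change of 0.47 with an adjusted p of 0.00655. With the DESeq2 Wald test Cdk1 was not called, at 0.47 and an adjusted p of 0.0687. Ccna2, whose cyclin A2 serves both S phase and mitotic entry, rose from 9.11 and 9.56 CPM to 12.9 and 13.5 CPM, a log2 fold change of 0.51 with an adjusted p of 0.00183, although 12.5% of its exon bases are shared with Exosc9 on the opposite strand.

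Aurka, the kinase of the spindle poles, was at 5.49 and 5.57 CPM in controls and at 9.23 and 6.87 CPM with tumor. The spread between its tumor libraries was wide, and its log2 fold change of 0.54 (adjusted p of 0.0118) was 0.31 and not called without tumor replicate 1. Without control replicate 1 its call was also lost, at a log2 fold change of 0.53. Ccnb1, which encodes cyclin B1, had a log2 fold change of 0.34 with an adjusted p of 0.0573. Plk1, a kinase that acts at centrosomes and kinetochores, rested on 56 to 106 counts per library and had a log2 fold change of 0.36 with an adjusted p of 0.138. Its 95% interval ran from -0.06 to 0.78, which includes both no change and a rise like that of Cdk1.

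The anaphase-promoting complex (APC/C) marks mitotic cyclins for destruction, and the spindle checkpoint holds it back until chromosomes are attached. Cdc20, the activator of the APC/C, was at 5.91 and 5.63 CPM in controls and at 9.86 and 10.1 CPM with tumor. It was 1.72-fold higher, with a log2 fold change of 0.79 ± 0.155 (SE, edgeR adjusted p = 9.15e-05). Ube2c, the ubiquitin-conjugating enzyme of the APC/C, was at 5.06 and 6.71 CPM in controls and at 7.90 and 7.79 CPM with tumor. Its log2 fold change of 0.42 (adjusted p of 0.0393) ranged from 0.23 to 0.63 without 1 library, and the call was lost without control replicate 1, tumor replicate 1 or tumor replicate 2. Ube2c shares 22.8% of its exon bases with Tnnc2, which had 0 counts in each library. Cdca3, part of a ubiquitin ligase that helps entry into mitosis, had a log2 fold change of 0.37 with an adjusted p of 0.0975. Its value ran from 0.14 to 0.57 over the alternatives other than AM identity scaling.

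The checkpoint kinases pointed the other way without passing the test. Bub1 was at 7.83 and 7.09 CPM in controls and at 5.71 and 5.85 CPM with tumor, and Bub1b was at 23.5 and 24.2 CPM against 20.2 and 20.7 CPM. In both genes the tumor libraries lay below the controls. The log2 fold change was -0.37 for Bub1 and -0.22 for Bub1b, with edgeR adjusted p of 0.0640 and 0.0532. With DESeq2 size factors Bub1b was called lower, at an adjusted p of 0.0487, whereas under AM identity scaling it was called higher at 0.22 (adjusted p of 0.0390) and Bub1 was at 0.07.

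Of the 3 genes of the chromosomal passenger complex, which corrects faulty attachments and guides cytokinesis, only Cdca8 was called. Cdca8, which encodes borealin, was at 6.34 and 5.38 CPM in controls and at 10.6 and 9.67 CPM with tumor, 1.72-fold higher, with a log2 fold change of 0.78 ± 0.157 (SE, edgeR adjusted p = 0.000127). The partners of borealin did not pass the test. Aurkb, the kinase of the complex, had overlapping groups and a log2 fold change of -0.02 with a 95% interval from -0.36 to 0.31. Birc5, which encodes survivin, was at 0.12 with an interval from -0.25 to 0.49. The differences between Cdca8 and its partners were not tested.

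The largest change of the set was that of Cenpa, which encodes the histone H3 variant that marks centromeres and on which kinetochores are built. Cenpa (ENSMUSG00000029177, chromosome 5, GRCm38 coordinates 30666777 to 30674830 on the plus strand) had 174 and 145 counts in the control and 344 and 393 counts in the tumor libraries. This was 9.27 and 9.18 CPM against 19.8 and 20.003 CPM. The groups were far apart beside the spread within them, and the gene was 2.16-fold higher, with a log2 fold change of 1.11 ± 0.118 (SE, edgeR adjusted p = 5.03e-09). Its value stayed between 1.09 and 1.18 over the 11 alternatives other than AM identity scaling, which gave 1.55.

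None of the other 4 kinetochore genes was called higher. Cenpe, a motor protein that carries chromosomes to the spindle equator, fell from 14.2 and 12.5 CPM to 10.6 and 10.3 CPM, a log2 fold change of -0.36 ± 0.130 (SE, edgeR adjusted p = 0.0204), against 0.08 under AM identity scaling. Its call was lost with total counts as library sizes and with the DESeq2 Wald test. It was also lost without control replicate 1, where the value was -0.26. Ndc80 and Nuf2, which encode partners in the complex that grips microtubules, had log2 fold changes of 0.31 ± 0.210 and -0.01 ± 0.188 (SE). Cenpf, a large kinetochore protein with the lowest level of the set for its length, 0.468 CPM per kilobase in controls, was at -0.03 ± 0.161 (SE). None of these 3 passed the test, and Ndc80 had 57 to 92 counts per library.

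Of 9 genes of the spindle and its midzone, 2 rose (22.2%, against 29.0% of all genes). Kif23, the motor of the centralspindlin complex that is needed for cytokinesis, was at 23.9 and 27.8 CPM in controls and at 36.2 and 37.8 CPM with tumor. Its log2 fold change was 0.52 ± 0.0854 (SE, edgeR adjusted p = 7.90e-06). Kif11, the motor that pushes spindle poles apart, was at 10.4 and 8.04 CPM in controls and at 11.5 and 13.4 CPM with tumor, with a wide spread in both groups. It was called at a log2 fold change of 0.43 ± 0.145 (SE, edgeR adjusted p = 0.0143), and the call was lost without control replicate 2 (0.26) or tumor replicate 2 (0.31).

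The other 7 spindle genes did not pass the test. Tpx2, a factor that starts microtubule growth near chromosomes and activates Aurora A, was at 0.23 with an edgeR adjusted p of 0.0667, and its tumor libraries lay above the controls. Stmn1, which encodes the microtubule-destabilizing protein stathmin, Kif20a, a midzone motor, and Hmmr, a spindle assembly protein, had values of 0.02, 0.02 and -0.00. Nusap1 and Prc1, which bundle microtubules, were at -0.06 and -0.12, and Kif15, a further spindle motor, was at -0.13. Groups overlapped in Stmn1, Kif20a, Hmmr, Nusap1 and Prc1. In Kif15 the tumor values of 7.79 and 9.26 CPM lay just below the controls at 9.27 and 9.43 CPM. Kif20a shares 29.3% of its exon bases with Cdc23, and Prc1 11.1% with Rccd1, so their counts are uncertain.

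Mki67 encodes Ki-67, which coats mitotic chromosomes and is the common histological marker of dividing cells. It had 2530 and 2130 counts in controls and 1850 and 2103 counts with tumor. On the TMM scale this was 135 CPM in each control library and 107 CPM in each tumor library. The groups were well separated, and the log2 fold change was -0.33 ± 0.0409 (SE, edgeR adjusted p = 6.46e-08), against 0.10 under AM identity scaling. Top2a, the topoisomerase that untangles replicated chromosomes and is often read beside Mki67, was not called. It was at 54.6 and 54.2 CPM in controls and at 56.9 and 58.0 CPM with tumor, a log2 fold change of 0.08 with a 95% interval from -0.04 to 0.20.

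The 25 genes that were not called comprised 13 with a positive and 12 with a negative value. In 20 of them the 95% interval stayed within 1.5-fold in either direction, and in the other 5 it reached beyond that. The SE of the 43 values ran from 0.0392 for Pcna to 0.210 for Ndc80, with a median of 0.137. Counts of single genes ranged from 56 to 2889 per library, far above the floor of 3 counts.

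The second question was whether other genes of the same processes behaved alike. A list of 126 further replication and mitosis genes was written, of which 125 were tested. Of these, 29 were called higher and 15 lower (35.2%, against 53.8% of all genes), with a median log2 fold change of 0.11. Under AM identity scaling 86 were higher and 1 was lower, beside 65.8% and 6.10% of all genes, with a median of 0.55 beside 0.46 for all genes, so the falls named here are relative to TMM scaling. Against 29.0% of all genes higher and 24.8% lower, the list of mitotic entry and checkpoint genes had 6 of 20 higher (30%) and 0 lower. Spindle and cytokinesis genes had 3 of 20 higher and 2 lower, origin licensing and firing genes 3 of 19 higher and 1 lower, and DNA polymerase and fork genes 4 of 27 higher and 4 lower. Chromosome condensation genes had 6 of 19 higher and 3 lower, and E2F and DREAM regulators 7 of 20 higher and 5 lower.

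**Figure D3:**
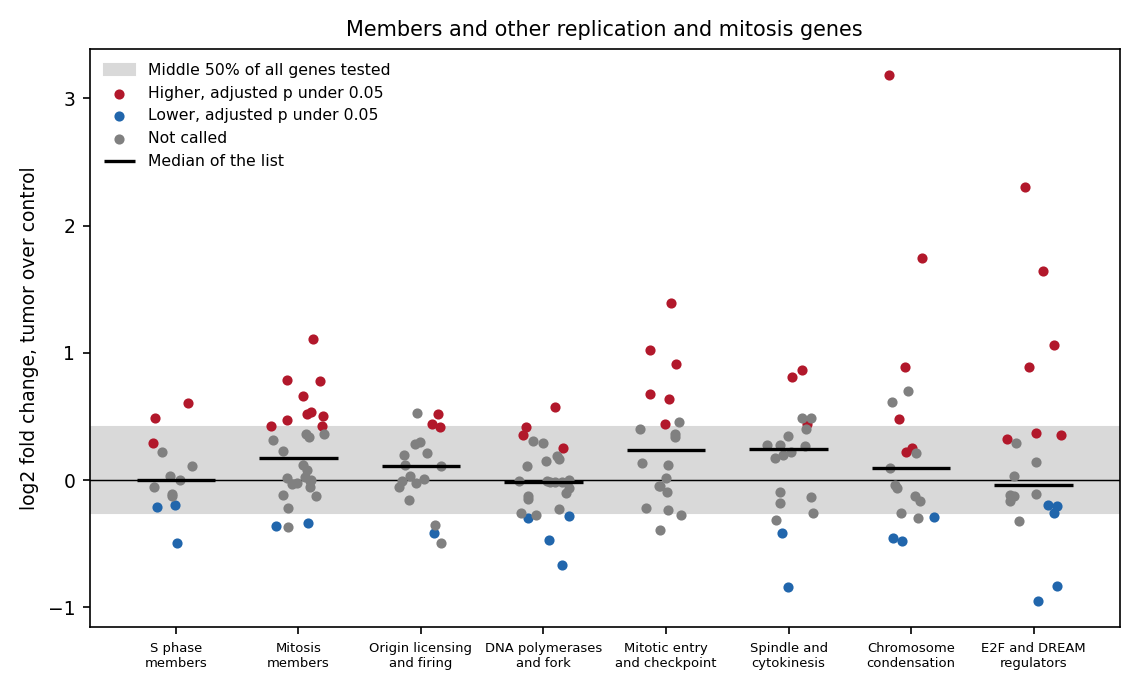
The log2 fold change, tumor over control, of every tested gene is plotted for the S phase and mitosis members and for 6 lists of further replication and mitosis genes, with list medians as black lines and the middle 50% of all genes tested as a grey band (from -0.26 to 0.42). All list medians lie within the band, and the highest points are Lmnb1 at 3.18, E2f2 at 2.31 and Hmgb2 at 1.75.

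Several of the named genes of these lists changed more than any of the 43. Lmnb1, which encodes lamin B1 of the nuclear lamina, was at 25.04 and 26.5 CPM in controls and at 228 and 239 CPM with tumor, a log2 fold change of 3.18 ± 0.04999 (SE, edgeR adjusted p = 9.61e-28). Hmgb2, a chromatin protein of dividing cells, was at 29.997 and 29.995 CPM in controls and at 104 and 97.7 CPM with tumor, a log2 fold change of 1.75. In both genes the groups were far apart. E2f2 and E2f8, an activator and a repressor of the E2F family, had log2 fold changes of 2.31 and 1.64, and E2f2 rose from 6.66 and 7.21 CPM to 34.5 and 34.1 CPM. Fbxo5, the inhibitor of the APC/C known as EMI1, rose by 1.06, whereas E2f5, Mybl1 and Lin54 were at -0.84, -0.95 and -0.26. Mybl1 had 9 and 31 counts in the tumor libraries.

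The chaperone that places CENP-A at centromeres is encoded by Hjurp. It was at 31.0 and 31.6 CPM in controls and at 57.3 and 58.6 CPM with tumor, a log2 fold change of 0.89 ± 0.0692 (SE, edgeR adjusted p = 9.42e-12). Hjurp thus rose as Cenpa did. The condensin subunits moved in both directions, since Ncapg2 and Smc2 fell by 0.48 and 0.29 on the log2 scale while Ncapd2 and Ncapd3, named after their values were seen, rose by 0.25 and 0.22. Ncaph (-0.04), Smc4 (-0.06) and Ncapg (-0.17) were not called.

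Among genes of mitotic entry, Cdc25c, a phosphatase that activates CDK1, rose by 1.39, Sgo1, which protects sister chromatid cohesion, by 1.02, and Ccnf, which encodes cyclin F, by 0.91. Cdc25c and Sgo1 had 9 to 45 counts per library. Of spindle genes, the kinesins Kif18b, Kif14 and Kif22 rose by 0.86, 0.81 and 0.44. Ckap2l, a spindle protein, fell by 0.84, from 27.1 and 26.2 CPM to 15.3 and 14.5 CPM, and Anln, which encodes the cytokinesis protein anillin, fell by 0.42.

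Among replication genes, Cdc45, a subunit of the active helicase, Gmnn, the licensing inhibitor geminin, and Dbf4, the activator of the CDC7 kinase, rose by 0.52, 0.44 and 0.42. Rpa2, of the single-stranded DNA binding complex, Dut, which removes dUTP, and Rfc2, of the clamp loader, rose by 0.57, 0.42 and 0.35. Rfc5, another clamp loader subunit, fell by 0.67, and the DNA polymerase alpha and primase subunits Pola1 and Prim2 fell by 0.48 and 0.30. Tipin, which stabilizes stalled forks, fell by 0.42 (edgeR adjusted p = 0.0421). With limma-voom, the DESeq2 Wald test or total counts as library sizes, no origin licensing and firing gene was called lower. Under AM identity scaling 16 of the 27 polymerase and fork genes (59.3%, against 65.8% of all genes) were called higher and 0 lower.

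These changes stood beside genes of other cells. In the granulocyte progenitor list, 7 of 7 tested genes were called higher, and Elane and Ms4a3 were at 0 in both controls. Neutrophil, eosinophil and basophil or mast cell genes were higher in 10 of 10, 5 of 5 and 6 of 6 cases. B cell genes, higher in 5 of 6 cases, summed to 21.6 and 19.5 CPM in controls and to 43.02 and 45.6 CPM with tumor. T and NK cell genes were higher in 3 of 5 cases, with sums of 4.05 and 4.68 against 14.4 and 15.2 CPM, and erythroid genes in 3 of 3, with sums of 0.693 and 1.46 against 14.4 and 15.1 CPM. Their part in the changes of the 43 genes was not tested.

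Genes of 4T1 cells themselves could not be separated from those of lung epithelium. Of 5 tested epithelial and carcinoma genes, 2 were higher and 3 lower, and their sum was 430.0 and 455.6 CPM in controls and 299.6 and 300.6 CPM with tumor. Monocyte and interstitial macrophage genes were higher in 2 and lower in 5 of 8 cases, with sums of 1145 and 1151 against 925 and 953 CPM. Cd14 made up most of these sums, at 1107 and 1113 CPM in controls and 890 and 916 CPM with tumor. Ccr2 and Ly6c2 were the 2 higher genes, at log2 fold changes of 1.33 and 2.46, the latter on 2 to 41 counts. The lower genes beside Cd14 were C1qa, C1qb, C1qc and Cx3cr1, at -0.87, -1.27, -1.09 and -1.71. Hepatocyte genes were higher in 9 and lower in 1 of 10 cases, with sums of 142.0 and 143.2 against 795.9 and 796.4 CPM. Trf, the 1 that was lower, made up nearly all of the control sum, at 141.9 and 143.0 CPM. Of the 10 genes, 8 had no counts in either control, among them Alb, which was at 463 and 476 CPM with tumor. The part of these cells was likewise not tested.

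**Figure D4:**
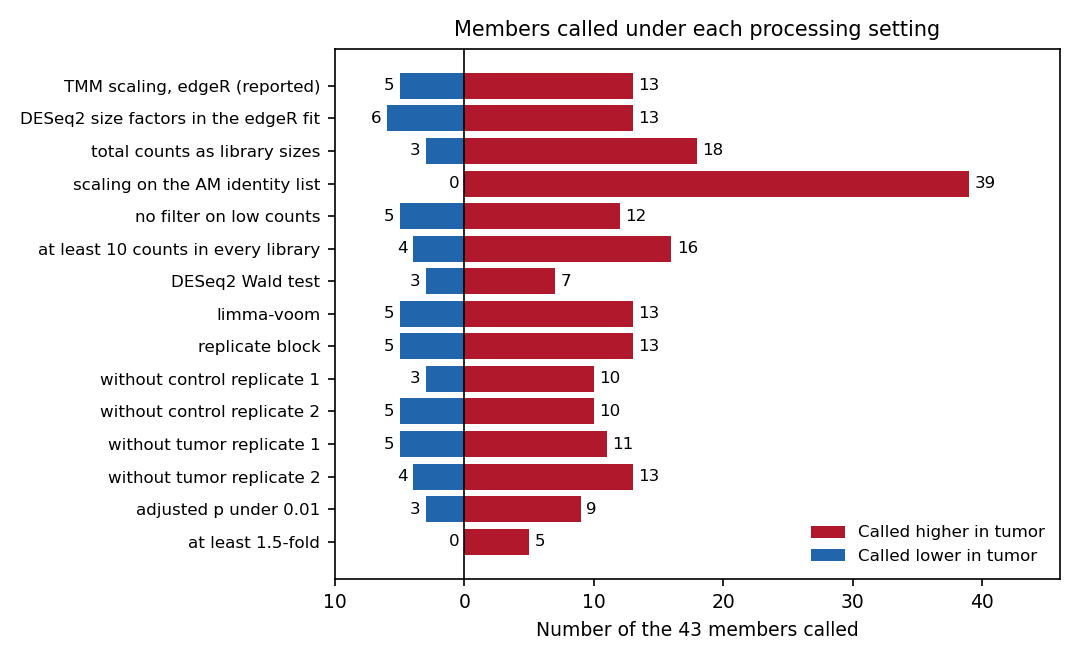
The number of the 43 genes called higher (red, to the right) or lower (blue, to the left) in the tumor libraries is plotted for each processing setting. Under most settings 7 to 18 genes were higher and 3 to 6 lower; scaling on the AM identity list gave 39 and 0, and a threshold of 1.5-fold gave 5 and 0.

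Across the 11 alternatives in scaling, filter, test and left-out library, AM identity scaling apart, 7 of the 13 higher genes were called higher in all, namely Rrm2, Ccna2, Ccnb2, Cdc20, Cdca8, Cenpa and Kif23. Of the 5 lower genes, Pcna, Tk1 and Mki67 were called lower in all of them. The calls that were lost in at least 1 alternative were those of Mcm5, Tyms, Cdk1, Aurka, Ube2c, Kif11, Mcm3 and Cenpe. With the DESeq2 Wald test all 8 of them were lost.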

How the data were processed

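Bulk RNA-seq of AMs was analysed from 1 table of 54532 genes and 4 libraries. Values were deposited by the authors as raw counts per gene, with 0 unused columns of per-sample values. Paired-end reads had been aligned with HISAT2 2.0.5 and counted with featureCounts, and the submitters' processing notes also list DESeq2 without a role. The gene lengths deposited by the authors, another column of the table, served for CPM per kilobase. The build, strand setting and handling of multi-mapping reads are not given in the sources used here, so overlapping and antisense genes may share counts. GENCODE release M 21 (GRCm38) held 54495 of the identifiers, 98.3% with identical coordinates, and 42 of the 43 members had identical coordinates.

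In R 4.3.3, genes were kept by filterByExpr at a minimum count of 10, which left 14256. Libraries were scaled by TMM (factors 0.977 to 1.02) and tested with edgeR 4.0.16 (glmQLFit and glmQLFTest, group as the only term, 2 residual degrees of freedom). The p-values were adjusted by Benjamini-Hochberg over these genes, and 0.05 was the threshold. The SE was derived from the F statistic, and CPM values use TMM-scaled library sizes. Groups came from the titles in the labels. Within groups, counts differed by more than counting noise (chi-square per gene 1.81 and 2.30 over all genes, 1.19 and 1.57 over the members), so no library was a copy of another. This spread may be technical, and libraries were counted as samples because the labels list them so. Total counts of 16167147 to 19205737 limit precision, and a floor of 3 counts covers counting error only.

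The rule for the members uses no measured value, but the members, the lists of other genes and the tests were chosen with earlier results of these data known. All 43 members were named, and from each of the 6 lists of other replication and mitosis genes up to 3 called higher and 3 called lower, those with the largest change among genes averaging 20 or more counts in the group where they were higher. A gene that this rule selects is not reported here. Alternatives were DESeq2 size factors, total counts, AM identity scaling, no filter, 10 counts or more in each library, limma-voom (limma 3.58.1), DESeq2 1.42.0 (Wald), the replicate number as a block, an adjusted p under 0.01, at least 1.5-fold, and leaving out each library.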

Additional observations from a re-analysis of the deposited data

How the results depend on the processing

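With 2 libraries per group and 2 residual degrees of freedom, the test draws its spread from all genes, and without 1 library the lone sample of a group is assumed to vary like the other group. Of all genes, 3607 in place of 7671 were called at 1.5-fold or more, and without 1 library 6502 to 7387 were called. The 18 called members became 39 with AM identity scaling, 10 with the DESeq2 Wald test and 5 at 1.5-fold, and 13 to 17 without 1 library. The 44 further replication and mitosis genes became 87, 25 and 18 under the same settings, and 31 to 46 without 1 library. The median log2 fold change of the members became 0.15 with total counts and 0.52 with AM identity scaling, that of S phase genes 0.070 and 0.44, and that of mitosis genes 0.24 and 0.61. Without 1 library these medians ran from 0.065 to 0.10, from -0.013 to 0.016 and from 0.16 to 0.23.

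With AM identity scaling, 16 of the 17 members with a negative value turned positive, Tk1 being the exception. Mcm2 became 0.38, Mcm3 0.24, Mcm7 0.33, Pcna 0.22, E2f1 0.31, Bub1 0.067, Bub1b 0.22, Aurkb 0.41, Cenpe 0.076, Cenpf 0.40, Nuf2 0.43, Kif15 0.31, Prc1 0.32, Nusap1 0.38, Hmmr 0.44 and Mki67 0.10. With total counts, Mcm2 became 0.0095, Aurkb 0.043, Cenpf 0.033, Nuf2 0.058, Nusap1 0.011 and Hmmr 0.066. With at least 10 counts in every library, Aurkb became 0.0013, Nuf2 0.017 and Hmmr 0.025. Gins2 became -0.00047 with DESeq2 size factors, -0.013 with no filter and -0.0023 with the Wald test, and Hmmr 0.0067 with limma-voom. Both scalings shift all genes alike, and for the other settings the cause was not tested. Without 1 library, Mcm2 ran from -0.14 to 0.027, Gins2 from -0.077 to 0.076, Aurkb from -0.17 to 0.10, Cenpf from -0.095 to 0.024, Nuf2 from -0.066 to 0.052, Kif20a from -0.078 to 0.11, Prc1 from -0.23 to 0.0046, Nusap1 from -0.11 to 0.0069, Hmmr from -0.24 to 0.30 and Stmn1 from -0.058 to 0.10.

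With the replicate number as a block, 18 members and 7446 of all genes were called, and Hmmr became 0.0067. Samples with the same number did not deviate together (r = -0.0035 across genes), so the numbers were not taken to pair the libraries.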
